A study of Rattus norvegicus with 42 samples.

Results

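Lungs of 6 male Fischer 344 rats that had inhaled crystalline silica while on a high-fat diet were compared with lungs of 5 male Fischer 344 rats that had inhaled the same dust on a regular diet, all sampled 9 months after the exposure. These 11 rats were chosen by their labelled diet, exposure and time out of 42 rats in the series, and no measured value entered the choice. The high-fat diet supplied 60% of its energy as fat and the regular diet 18%. Each diet was started 2 weeks before the exposure and kept up until the lungs were taken. Silica was breathed in a whole-body chamber at 15 mg/m3 for 6 hours a day on 5 days by rats bought at 3 months of age. A further 2 pairs of groups were set beside these rats: 6 high-fat and 6 regular-diet rats that had breathed air, also at 9 months, and 5 high-fat and 5 regular-diet silica rats at 3 months. Rats were housed 3 to a cage, and the labels do not say which rats shared a cage.

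Crystalline silica persists in the lung, where alveolar macrophages engulf it and release inflammatory mediators, and the alveolar type 2 cells around them make large amounts of lipid for surfactant. The enzymes that make fatty acids and cholesterol are controlled together by the sterol regulatory element binding proteins, which the cell activates when membrane sterol or polyunsaturated fat runs low. Feeding is also a time signal for the molecular clock of peripheral tissues, in which Nr1d1 and Nr1d2 repress and Dbp and Tef activate clock-driven genes.

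The values are read counts per gene from stranded total RNA libraries depleted of ribosomal RNA, and levels are given as CPM, the usual scaling of counts to a common library size. Total counts in the 11 libraries ran from 3078216 to 7676974, with the lowest in rat 2 of the high-fat silica group. Lung markers were abundant in both groups: Sftpc, the surfactant protein of alveolar type 2 cells, averaged 10476 ± 809 CPM in high-fat silica lungs and 9333 ± 962 CPM in regular silica lungs (SD, n = 6 and 5). Scgb1a1 of airway club cells averaged 2541 ± 251 CPM in high-fat silica lungs and 2046 ± 512 CPM in regular silica lungs. In whole lung, fewer cells of a type and less RNA per cell cannot be told apart. The genes Rnr1 and Rnr2 together took 7.66% ± 0.217 of the counts in high-fat silica lungs, between 7.29% and 7.85%, and 3.67% ± 1.07 in regular silica lungs, between 2.60% and 5.35% (SD, n = 6 and 5). The ranges of the diets were apart, and the difference of 3.99 percentage points had p = 0.00216 in a two-sided exact permutation test, the smallest p that 462 splits can give. Rnr2 alone rose by 0.98 on the log2 scale (SE 0.24, adjusted p = 0.0230), a call that ended without regular rat 1 or 2, with adjusted p of up to 0.0641. In air the share was 6.21% ± 1.11 in high-fat lungs and 1.22% ± 0.699 in regular lungs (SD, n = 6 each).

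**Figure D1:**
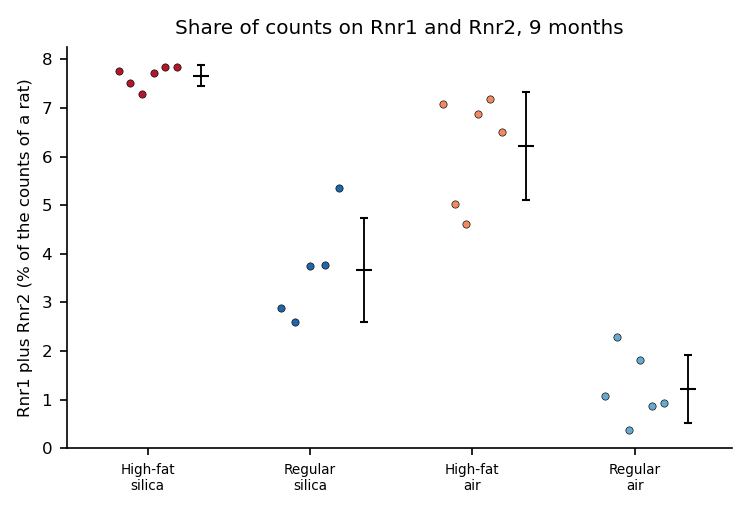
Share of each rat's counts that fell on Rnr1 and Rnr2, in percent, in the 4 groups at 9 months. Points are rats and bars are the mean with SD, and the high-fat silica rats, between 7.29% and 7.85%, all lie above the regular silica rats.

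Between the diets under silica, 537 of 15276 tested genes (3.52%) had an adjusted p below 0.05 (edgeR quasi-likelihood test with Benjamini-Hochberg adjustment, the test behind every adjusted p here): 278 were higher (1.82%) and 259 lower (1.7%) in high-fat lungs. The differences were small. The median absolute log2 fold change was 0.35 among these genes and 0.11 over all tested genes, and 4 genes rose (0.0262%) and 24 fell (0.157%) by at least 2-fold. Of all tested genes 485 (3.17%) did not overlap between the groups, 275 (1.8%) higher and 210 (1.37%) lower, and 290 of these were among the 537. With the log2 share of Rnr1 and Rnr2 as a covariate, 27 genes passed, 25 of them among the 537, and all 537 kept their direction. Their median absolute log2 fold change was then 0.30, with a median standard error of 0.104 in place of 0.0807. Because the share separates the groups completely, diet and share cannot be told apart. Leaving out 1 rat gave between 260 genes, without regular silica rat 2, and 724 genes, without high-fat silica rat 1. The count was between 260 and 358 without high-fat rats 3, 4, 5 or 6 or regular rats 2, 3 or 4.

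Several genes of lipid synthesis rose. Of 16 tested fatty acid synthesis genes 6 were higher and none lower in high-fat silica lungs, with a median log2 fold change of 0.16 against 0.01 over all tested genes. Fads2, the delta-6 desaturase that starts the making of long polyunsaturated fatty acids, had 72.7, 79.7 and 85.7 CPM as its lowest, median and highest values in high-fat silica lungs, against 51.1, 45.7, 46.1, 45.4 and 47.0 CPM in regular silica lungs. Every high-fat rat lay above every regular rat, and the log2 fold change was 0.76 (SE 0.07, adjusted p = 8.80e-07). Fads1, the delta-5 desaturase of the same pathway, rose by 0.42 (SE 0.05, adjusted p = 3.80e-05). Srebf1, the transcription factor of fatty acid synthesis genes, had 172, 204 and 225 CPM at its lowest, median and highest in high-fat silica lungs and 118.3, 136.97, 133.5, 144.3 and 122.3 CPM in regular silica lungs. No rat of either diet fell in the other's range, and the log2 fold change was 0.62 (SE 0.09, adjusted p = 3.54e-04).

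Stearoyl-CoA desaturase puts the double bond into saturated fatty acids. The gene listed as Scd ran from 2132 to 2392 CPM with a median of 2202 CPM in high-fat silica lungs, against 1345, 1333, 1511, 1564 and 1519 CPM in regular silica lungs, without overlap (log2 fold change 0.62, SE 0.07, adjusted p = 2.08e-05). A separate gene listed as Scd1, chosen after its values were seen, rose by 0.72 (SE 0.17, adjusted p = 0.0214). In RefSeq both symbols are older names within one family of near-identical genes, so how reads were split between them is uncertain. Acly, which makes cytosolic acetyl-CoA, and Acacb, an acetyl-CoA carboxylase, rose by 0.24 and 0.34. Fasn, the fatty acid synthase itself, had a log2 fold change of 0.09 and did not pass. The 4 genes Fads1, Fads2, Scd and Srebf1 passed whichever rat was left out and with the Rnr share as a covariate. Acly did not pass without high-fat rats 3 to 6 or regular rats 1 or 2 and Acacb without high-fat rats 3 to 6 or regular rats 2 to 4, with adjusted p of up to 0.0855 and 0.103, and Scd1 did not pass without high-fat rat 4 or regular rats 2 or 3, with adjusted p of up to 0.0647.

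Cholesterol synthesis moved the same way. Of 21 genes 7 were higher and none lower, 20 of the 21 fold changes were above 0, and their median was 0.24. Sqle, the squalene epoxidase, had 45.8, 50.7 and 55.7 CPM at its lowest, median and highest in high-fat silica lungs, against 36.0, 35.3, 37.3, 34.3 and 32.5 CPM in regular silica lungs. The groups did not overlap, and the log2 fold change was 0.52 (SE 0.09, adjusted p = 0.00199). Hmgcs1, which makes the precursor of mevalonate, rose by 0.50, Fdft1, the squalene synthase, by 0.35, and Fdps, the farnesyl diphosphate synthase, by 0.34. Insig1, which holds the sterol regulatory factors in the endoplasmic reticulum, rose by 0.33, and Cyp51, the lanosterol demethylase, by 0.32. Without single rats between 5 and 9 of the 21 genes passed. Cyp51 did not pass without high-fat rat 5 and Fdps without high-fat rat 5 or regular rat 2, with adjusted p of up to 0.0565 and 0.0574. With the Rnr share as a covariate 2 passed, Hmgcs1 and Insig1, and the median stayed at 0.24.

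**Figure D2:**
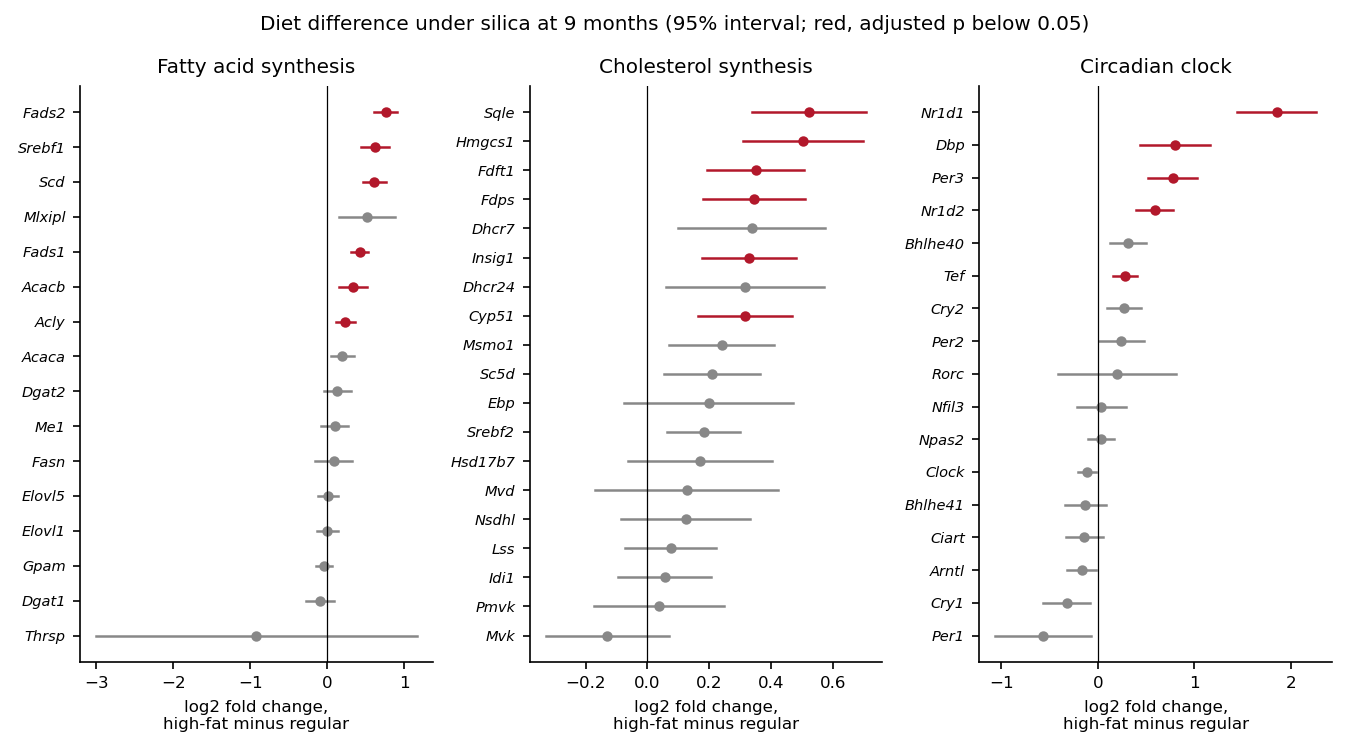
Log2 fold change, high-fat minus regular diet under silica at 9 months, of tested members of the fatty acid synthesis, cholesterol synthesis and circadian clock lists. Points are estimates and lines 95% intervals, red where the adjusted p was below 0.05, and the red members of all 3 lists lie above 0.

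The promoters of 4 of the 7 higher cholesterol genes were at hand, those of Hmgcs1, Fdps, Insig1 and Cyp51. They were searched on both strands for the sterol regulatory element letters TCACNCCAC, which 1.12% of 33469 RefSeq promoters hold, and for CCAAT, the box bound by a partner of the sterol factors, which 37.5% hold. No promoter of the 4 held TCACNCCAC, and 3 held CCAAT. Other forms of the sterol regulatory element were not searched for, so its absence from these promoters was not shown. CCAAT was also held by 4 of the 5 higher clock genes and 4 of the 6 higher fatty acid synthesis genes, and TCACNCCAC by none of either. Hmgcs1 and Fdps, which hold 2 boxes each, are shown because they rose together. The window runs from 250 bases before to 50 bases after the start, and capitals mark CCAAT or its reverse complement.
Hmgcs1, GRCr8 chr2:53382054-53382353, plus strand: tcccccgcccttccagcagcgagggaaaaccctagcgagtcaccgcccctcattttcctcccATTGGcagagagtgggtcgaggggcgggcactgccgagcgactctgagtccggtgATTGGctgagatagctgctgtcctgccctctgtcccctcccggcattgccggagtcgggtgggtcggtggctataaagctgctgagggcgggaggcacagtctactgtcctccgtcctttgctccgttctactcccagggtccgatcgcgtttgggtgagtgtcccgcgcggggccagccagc
Fdps, GRCr8 chr2:176804767-176805066, minus strand: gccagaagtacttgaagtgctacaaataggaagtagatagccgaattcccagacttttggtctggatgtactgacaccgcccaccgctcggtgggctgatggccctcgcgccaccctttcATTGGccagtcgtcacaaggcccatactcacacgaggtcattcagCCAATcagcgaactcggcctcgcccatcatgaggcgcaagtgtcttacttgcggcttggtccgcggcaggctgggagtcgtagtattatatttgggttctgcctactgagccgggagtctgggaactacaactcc
The farther box begins 188 bases before the start in Hmgcs1 and 130 bases before it in Fdps. A match of letters is a description and not a bound site.

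Genes of fatty acid oxidation and targets of PPAR, the nuclear receptors that sense fatty acids, were read as a list. Of its 29 genes 3 were higher and none lower, against 1.82% higher and 1.7% lower over all tested genes. Of the 29 fold changes 20 were above 0 and 9 below, with a median of 0.07. Acot1, a cytosolic acyl-CoA thioesterase, had 1.72, 3.48 and 4.41 CPM at its lowest, median and highest in high-fat silica lungs and averaged 1.29 ± 0.425 CPM in regular silica lungs, where the highest rat had 1.65 CPM. It rose 2.62-fold (log2 fold change 1.39, SE 0.29, adjusted p = 0.00951). Ech1, an isomerase of fatty acid oxidation, rose by 0.29. Cpt1a, which carries fatty acids into the mitochondrion, rose by 0.20 but did not pass without high-fat rats 2 to 6 or regular rats 1 to 4, with adjusted p of up to 0.115. Pdk4 and Angptl4, widely used markers of PPAR activity, had log2 fold changes of -0.19 (95% interval -0.56 to 0.19) and -0.17 (-0.53 to 0.19). Among cholesterol efflux and oxysterol genes, Ch25h, which makes 25-hydroxycholesterol, fell by 0.83 and Lpcat3, which builds polyunsaturated phospholipids, rose by 0.28. Without single rats the call of Ch25h ended for high-fat rat 6 and regular rats 1, 2 and 3 and that of Lpcat3 for high-fat rats 3 to 6 and regular rats 1, 2, 4 and 5, with adjusted p of up to 0.0727 and 0.0925.

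Of 17 circadian clock genes 5 were higher and none lower in high-fat silica lungs, with a median of 0.20. Nr1d1, the heme-binding repressor of the clock also called Rev-erb alpha, had 29.6, 40.9 and 57.5 CPM at its lowest, median and highest in high-fat silica lungs, against 11.6, 10.5, 8.39, 13.1 and 14.5 CPM in regular silica lungs. The ranges of the diets were apart, and the gene rose 3.61-fold (log2 fold change 1.85, SE 0.20, adjusted p = 3.38e-06). Per3, a period gene, had 31.1, 45.7 and 51.1 CPM at its lowest, median and highest in high-fat silica lungs and 31.9, 23.4, 22.2, 24.1 and 22.0 CPM in regular silica lungs. There regular silica rat 1 lay within the range of the high-fat rats, and the log2 fold change was 0.77 (SE 0.12, adjusted p = 0.00110). Dbp, an output activator of the clock, rose by 0.80, Nr1d2, the paralog of Nr1d1, by 0.59, and Tef, a relative of Dbp, by 0.28. Arntl, the core activator that Nr1d1 represses, had a log2 fold change of -0.17 (95% interval -0.32 to -0.01) and an adjusted p of 0.235. All 5 calls held whichever rat was left out, and those of Nr1d1, Per3 and Nr1d2 held with the Rnr share as a covariate. The hour at which lungs were taken is not given in the sources used here.

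Clock activators bind the E-box letters CACGTG, which 6.42% of the RefSeq promoters hold. The promoters of all 5 higher clock genes were at hand, and 2 genes held the letters, Nr1d1 in 1 of its 2 promoters and Tef. Both windows are shown because they hold this letter run, which is its own reverse complement and is in capitals.
Nr1d1, GRCr8 chr10:84229405-84229704, minus strand: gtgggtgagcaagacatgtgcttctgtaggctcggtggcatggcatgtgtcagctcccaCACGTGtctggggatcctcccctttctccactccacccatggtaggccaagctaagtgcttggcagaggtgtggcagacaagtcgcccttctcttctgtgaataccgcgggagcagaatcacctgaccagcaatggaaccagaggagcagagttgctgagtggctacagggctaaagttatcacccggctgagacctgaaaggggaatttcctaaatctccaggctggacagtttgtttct
Tef, GRCr8 chr7:115206577-115206876, plus strand: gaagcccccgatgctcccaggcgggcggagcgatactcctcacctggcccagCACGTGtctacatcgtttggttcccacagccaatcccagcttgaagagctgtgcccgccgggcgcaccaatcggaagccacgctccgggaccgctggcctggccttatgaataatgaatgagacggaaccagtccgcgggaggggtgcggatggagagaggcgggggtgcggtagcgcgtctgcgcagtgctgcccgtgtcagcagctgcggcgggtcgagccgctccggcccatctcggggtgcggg
The box begins 191 bases before the start in Nr1d1 and 198 bases before it in Tef.

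Cyp1a1, a cytochrome P450 and the usual reporter gene of the aryl hydrocarbon receptor, was nearly silent on the regular diet. It had 2.41, 3.66 and 5.34 CPM at its lowest, median and highest in high-fat silica lungs, against 0, 0.172, 0.150, 0 and 0.193 CPM in regular silica lungs. The 5 regular silica lungs held 3 counts in all, and the depth-adjusted ratio of high-fat to regular silica lungs was 36.2 (95% interval 12.1 to 178, counting error only). No rat of either diet fell in the other's range, and the adjusted p was 5.97e-07, while the fitted fold depends on the prior count. It was the 1 gene of 7 tested aryl hydrocarbon receptor genes to pass. Ahrr, the repressor of the receptor, had a log2 fold change of 0.77, and Cyp1b1, another cytochrome P450 target, had -0.19; neither passed.

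**Figure D3:**
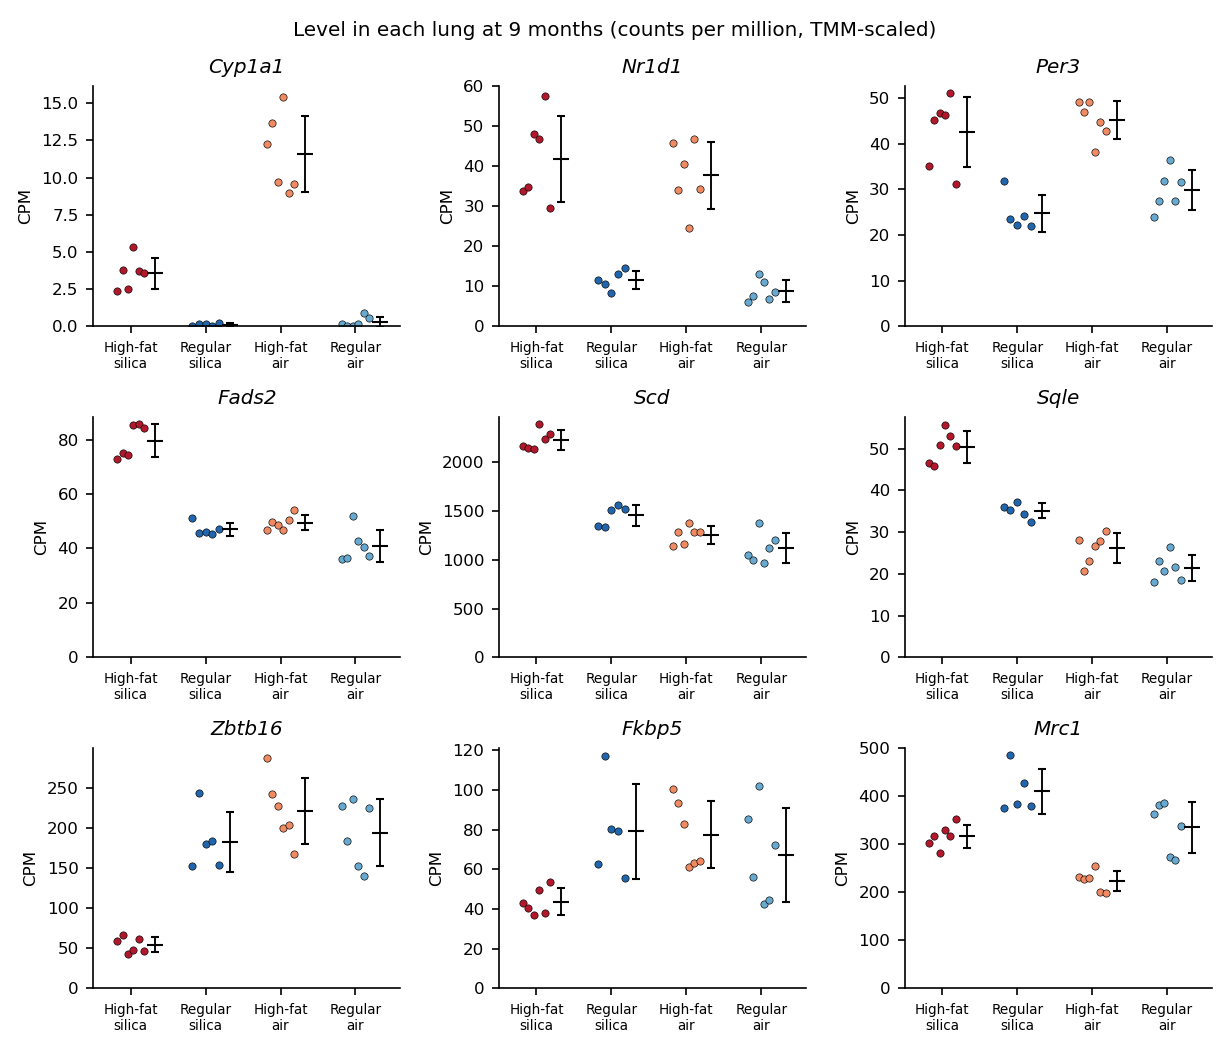
Level in CPM of 9 genes in each lung of the 4 groups at 9 months, on linear axes that start at 0. Points are rats and bars the mean with SD, and Zbtb16 lies between 43.1 and 65.9 CPM in high-fat silica lungs while the lowest rat of the other groups has 140 CPM.

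Zbtb16, a zinc finger repressor induced by glucocorticoids and also called PLZF, had the smallest adjusted p. Its lowest, median and highest values were 43.1, 52.9 and 65.9 CPM in high-fat silica lungs, against 153, 243, 179, 184 and 153 CPM in regular silica lungs. No rats overlapped, and the gene fell 3.4-fold (log2 fold change -1.76, SE 0.15, adjusted p = 2.27e-07). Of 11 tested glucocorticoid response genes 3 were lower and none higher, with a median of -0.32. Fkbp5, a chaperone of the glucocorticoid receptor, had 37.2, 41.8 and 53.8 CPM at its lowest, median and highest in high-fat silica lungs, against 62.7, 117.2, 80.3, 79.5 and 55.7 CPM in regular silica lungs, without overlap. It fell by 0.85 on the log2 scale (SE 0.20, adjusted p = 0.0208), and it did not pass without high-fat rat 5 or regular rat 2, with adjusted p of up to 0.0794. Tsc22d3, the glucocorticoid-induced leucine zipper, fell by 0.55 (SE 0.12, adjusted p = 0.0113). With the Rnr share as a covariate Zbtb16 kept its call at -1.54, and Fkbp5 did not, at -0.36. Sgk1 and Dusp1, other glucocorticoid-induced genes, had log2 fold changes of 0.03 and 0.16 and did not pass. They were the only 2 of the 11 list members above 0, and the other 9 were below 0.

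Mesothelial genes, which mark the pleural lining, were among the largest falls. Of 6 genes 5 were lower, with a median of -1.66. In air none of the 6 passed, with a median of -0.28. Under silica at 3 months none did either, with a median of -0.05. The diet difference under silica minus that in air had a median of -1.35, and it passed for none of the 6. Upk3b, a uroplakin of mesothelium, had 0.342, 0.986 and 3.74 CPM at its lowest, median and highest in high-fat silica lungs, against 4.16, 4.13, 11.2, 14.4 and 10.05 CPM in regular silica lungs. The groups did not overlap, regular silica rats 1 and 2 were the lowest on that diet, and the gene fell 5.24-fold (log2 fold change -2.39, SE 0.53, adjusted p = 0.0146). Wt1, the transcription factor of mesothelium, fell by 2.26, Upk1b, another uroplakin, by 1.68, Lrrn4, a leucine-rich repeat protein of mesothelium, by 1.63, and Msln, mesothelin, by 1.12. Krt19, a keratin that lung epithelium also makes, had a log2 fold change of 0.16 and did not pass. The summed list ran from 235 to 295 CPM in high-fat silica lungs and from 224 to 369 CPM in regular silica lungs. Krt19 made up most of that sum. Msln, the most abundant of the 5 that fell, averaged 18.5 CPM in high-fat silica lungs and 38.8 CPM in regular silica lungs. None of the 6 markers was at 0 in every rat. Muc16, a mucin of mesothelium and airway, fell by 1.52, and Gpm6a, a membrane glycoprotein, by 1.87. How much pleura each lung piece held is not given in the sources used here, and its part in these differences was not tested. Wt1 and Muc16 did not pass without regular rat 4, Lrrn4 without high-fat rats 4 or 5 or regular rats 3 or 4, Msln without those or high-fat rat 3, and Upk1b without those or high-fat rat 1, with adjusted p of up to 0.0576, 0.0594, 0.0918, 0.112 and 0.131. Without regular silica rat 4 the list kept 1 of its 5 calls, that of Upk3b, and with the Rnr share as a covariate it kept none, at a median of -1.61.

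**Figure D4:**
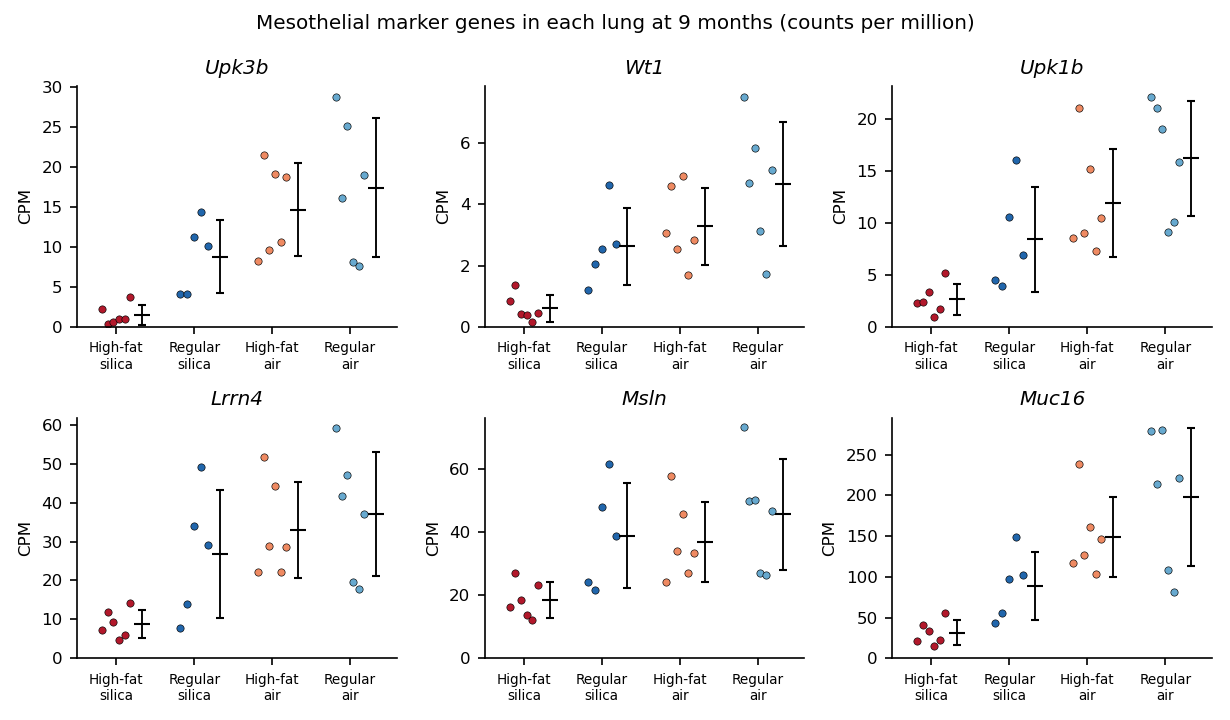
Level in CPM of Upk3b, Wt1, Upk1b, Lrrn4, Msln and Muc16 in each lung of the 4 groups at 9 months. Muc16 is not a member of the list of 6 mesothelial genes, and Krt19, the member that did not fall, is not shown. Points are rats and bars the mean with SD, and Upk3b stays at or under 3.74 CPM in high-fat silica lungs and at or over 4.13 CPM in regular silica lungs.

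Few macrophage and inflammation genes passed the test between the diets under silica, where 3.52% of all tested genes passed. Of 18 osteopontin and lipid-handling macrophage genes none passed, with a median of -0.06 and a summed level of 7955 to 9806 CPM in high-fat silica lungs and 7921 to 10183 CPM in regular silica lungs. Spp1, osteopontin, had a log2 fold change of 0.21 (95% interval -0.29 to 0.71), Mmp12, the macrophage elastase, 0.49 (-0.06 to 1.04), and Ccl2, a monocyte attractant, 0.28 (-0.07 to 0.64). Lcn2, an antimicrobial iron-binding protein, had -0.07 (-0.36 to 0.23), C3 of complement 0.07 (-0.16 to 0.29) and Hmox1, heme oxygenase, -0.07 (-0.21 to 0.07). None of the 20 complement genes, 8 class II antigen presentation genes, 8 neutrophil genes, 14 T cell genes or 10 B and plasma cell genes passed. In that order, their fold changes above and below 0 numbered 10 and 10, 2 and 6, 4 and 4, 3 and 11, and 6 and 4. At a share of 3.52% lists this short can hold no call, so its lack does not set these lists apart from other genes. Of the 46 lists read, 26 had no gene that passed, 9 had 1 and 11 had 2 or more.

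A few immune genes did move. Retnla, resistin-like alpha of alternatively activated macrophages, had 510, 580 and 663 CPM at its lowest, median and highest in high-fat silica lungs, against 291, 412, 356, 284 and 236 CPM in regular silica lungs. The ranges of the diets were apart, and the log2 fold change was 0.87 (SE 0.20, adjusted p = 0.0161), although DESeq2 did not call the gene. Mrc1, the mannose receptor of macrophages, had 281, 316 and 351 CPM at its lowest, median and highest in high-fat silica lungs, against 375, 486, 383, 428 and 379 CPM in regular silica lungs. It fell by 0.37 without overlap (SE 0.09, adjusted p = 0.0229), and it did not pass without regular rat 2 or 4, with adjusted p of up to 0.0799. Lbp, which binds bacterial lipopolysaccharide, rose by 0.46. Among chemokines, Ccl5 rose by 0.45 and Cxcl9, an interferon-induced T cell attractant, fell by 0.81, but Ccl5 did not pass without high-fat rats 3 to 6 or regular rats 1, 2 or 5 and Cxcl9 without high-fat rats 3 to 5 or regular rats 2 or 4, with adjusted p of up to 0.0951 and 0.0770. Il1rn, the interleukin 1 receptor antagonist, fell by 0.37, but it did not pass without high-fat rats 1, 3, 5 or 6 or regular rats 2 or 4, with adjusted p of up to 0.118. Among the genes that fell at least 2-fold and were chosen after their values were seen, Ubd, an interferon-induced ubiquitin-like protein, fell by 1.17 and Irg1, which makes itaconate in activated macrophages, by 1.2, and the groups overlapped for both.

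Single members of other lists also passed. Over all tested genes 3.52% passed, so 1 call in a list is a result about that gene and not about the list. Col3a1, a fibrillar collagen, had 424, 436 and 446 CPM at its lowest, median and highest in high-fat silica lungs and averaged 525 ± 30.8 CPM in regular silica lungs, where the lowest rat had 487 CPM. It fell by 0.27 (SE 0.05, adjusted p = 0.00476), while Col1a1, the other main fibrillar collagen, had 0.04 (95% interval -0.17 to 0.25). Hspa5, the chief chaperone of the endoplasmic reticulum, fell by 0.26. Atp6v0a1, a subunit of the proton pump, rose by 0.26, and Lamp2, a lysosomal membrane protein, fell by 0.20, though Lamp2 did not pass without high-fat rats 1 or 6 or regular rats 2 to 4, with adjusted p of up to 0.112. Hbb, a hemoglobin, fell by 0.70 and was the 1 of 8 erythroid genes to pass, with a summed list of 2058 to 3185 CPM in high-fat silica lungs and 2449 to 5809 CPM in regular silica lungs. All 8 erythroid fold changes were below 0, with a median of -0.99. Rps27 rose by 0.52 and was the 1 of 43 cytosolic ribosomal protein genes to pass, against 3.52% of all tested genes. The call of Hbb ended without high-fat rats 5 or 6 or regular rats 1 or 3, with adjusted p of up to 0.106. In insulin signalling Foxo1, a transcription factor that insulin holds back, rose by 0.39, but it did not pass when any 1 of the 11 rats was left out, with adjusted p of up to 0.120. Pik3r1, a regulatory subunit of the insulin-activated lipid kinase, fell by 0.22 and did not pass without regular rat 2 (adjusted p = 0.0561).

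Outside the lists, Cnr1, the cannabinoid receptor, had 24.5, 26.6 and 30.6 CPM at its lowest, median and highest in high-fat silica lungs, against 55.2, 67.4, 67.3, 47.9 and 49.9 CPM in regular silica lungs. The groups were far apart, and the gene fell 2.13-fold (log2 fold change -1.09, SE 0.12, adjusted p = 3.38e-06). Cyp26b1, which degrades retinoic acid, had 13.1, 16.1 and 19.9 CPM at its lowest, median and highest in high-fat silica lungs, against 39.5, 35.1, 43.9, 49.3 and 48.1 CPM in regular silica lungs, also without overlap. It fell 2.62-fold (log2 fold change -1.39, SE 0.17, adjusted p = 2.37e-05). Cytl1, a secreted cytokine-like protein, rose by 0.79 and Adam19, a membrane metalloproteinase, by 0.63, both with an adjusted p of 1.94e-05. Acer2, an alkaline ceramidase, fell by 0.53, Far1, a fatty acyl-CoA reductase, by 0.30, and Apol11a, of the apolipoprotein L family, by 0.51. Among the larger rises, Ntrk2, a neurotrophin receptor, rose by 0.88, the transcription factor Mafa by 0.99, the formin Fhod3 by 0.96, Cyb561d1 by 0.83 and Rasd2 by 0.83. Of these, Ntrk2 did not pass without high-fat rats 2, 3, 5 or 6 or regular rats 2, 4 or 5 and Cyb561d1 without high-fat rats 4 to 6 or regular rats 1 to 4, with adjusted p of up to 0.0896 and 0.117, and Mafa and Rasd2 without high-fat rat 5 or regular rat 2, with adjusted p of up to 0.0617 and 0.0606. Slc26a3, an anion exchanger, fell by 3.18, Slc13a4, a sulfate carrier, by 1.55, and Ppp2r2b, a phosphatase subunit, by 1.45. No high-fat silica lung had more than 2.84 CPM of any of these 3 genes. Slc26a3 did not pass without regular rat 4, Slc13a4 without high-fat rats 3, 4 or 5 or regular rats 3, 4 or 5, and Ppp2r2b without high-fat rats 3 to 6 or regular rats 1, 4 or 5, with adjusted p of up to 0.0569, 0.0915 and 0.0835.

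The same diet contrast was made in air, in rats that share no animal with the silica groups. There 2327 genes passed (15.2%), 1247 higher (8.16%) and 1080 lower (7.07%), but with the Rnr share as a covariate 1 gene passed in air, Cyp1a1, and every other call in air was lost. The share ran from 4.62% to 7.19% in high-fat air lungs and from 0.375% to 2.29% in regular air lungs. It separates these groups completely, so diet and share cannot be told apart in air either. Of the 537 genes of the silica contrast, 217 passed in air too, which is 40.4% of the silica list and 9.33% of the air list, and 212 of them moved the same way. Nr1d1 had a log2 fold change of 1.85 under silica and 2.09 in air, and the difference between them was -0.24 (95% interval -0.81 to 0.34). Cyp1a1 averaged 11.6 ± 2.59 CPM in high-fat air lungs and 0.282 ± 0.347 CPM in regular air lungs (SD, n = 6 each). The 5 genes that passed in both with opposite signs were Ctnna1, Flvcr2, Pla2g2a, Ppp1cb and Zfp366.

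The interaction, the diet difference under silica minus that in air, passed for 167 genes (1.09%), 84 higher (0.55%) and 83 lower (0.543%). Of these 37 had passed under silica, 7 of them in air too, and 56 of the 167 had the same sign under silica and in air. Zbtb16 had -1.76 under silica and 0.19 in air (SE 0.15 and 0.14), a difference of -1.95 (SE 0.21, adjusted p = 1.29e-05). In air it ran from 167 to 287 CPM in high-fat lungs and from 140 to 236 CPM in regular lungs, so those groups overlapped. Lipid synthesis genes also differed: Fads2 had 0.76 under silica and 0.28 in air, a difference of 0.48 (SE 0.10, adjusted p = 0.0226). Srebf1 had 0.62 under silica and 0.02 in air, a difference of 0.60 (SE 0.12, adjusted p = 0.0209), and Fads1 had 0.42 and 0.06, a difference of 0.36 (SE 0.07, adjusted p = 0.0192). Scd differed by 0.45 and Insig1 by 0.44, but Scd did not pass without high-fat air rat 1 or 3 and Insig1 without high-fat air rats 1, 2 or 5, high-fat silica rats 4 or 5 or regular silica rats 4 or 5, with adjusted p of up to 0.0565 and 0.0713. With the Rnr share as a covariate 23 interaction genes passed, among them Zbtb16 at -2.23, and the differences of Fads2, Srebf1, Fads1, Scd and Insig1 were 0.31, 0.48, 0.36, 0.27 and 0.23 and did not pass, with adjusted p between 0.148 and 0.500.

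Some macrophage genes passed in air and not under silica. Of the 18 osteopontin and lipid-handling macrophage genes 12 were lower in air, none passed under silica, and 6 had a higher interaction. Gpnmb, a glycoprotein of lipid-laden macrophages, had 1426, 1881 and 2090 CPM at its lowest, median and highest in high-fat silica lungs and 1524, 2019, 1897, 1757 and 1524 CPM in regular silica lungs, which overlapped. In air it had 245, 271 and 352 CPM in high-fat lungs and 389, 486 and 620 CPM in regular lungs, which did not. The log2 fold change was 0.06 under silica and -0.85 in air, a difference of 0.90 (SE 0.16, adjusted p = 0.00553). Trem2, a lipid-sensing receptor of macrophages, had -0.33 under silica and -1.40 in air, a difference of 1.07 (SE 0.19). Lcn2 differed by 1.43, the chemokine Ccl3 by 1.01, the neutrophil chemokine receptor Cxcr1 by 1.06 and Abcg1, a cholesterol exporter of macrophages, by 0.54. Mmp12 differed by 2.63 and C3 by 0.69, but Mmp12 did not pass without high-fat air rat 3 or regular air rat 2 and C3 without regular silica rat 4 or 5, with adjusted p of up to 0.0528 and 0.0549. Of the 20 lysosome and proton pump genes 13 were lower in air and 5 had a higher interaction. With the Rnr share as a covariate Trem2 and Cxcr1 kept their interaction calls, at 1.12 and 1.00, while those of Gpnmb (adjusted p = 0.0552), Lcn2 (0.0676), Mmp12 (0.122), Ccl3 (0.150), Abcg1 (0.177) and C3 (0.404) were lost, and the difference of C3 was 0.43.

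**Figure D5:**
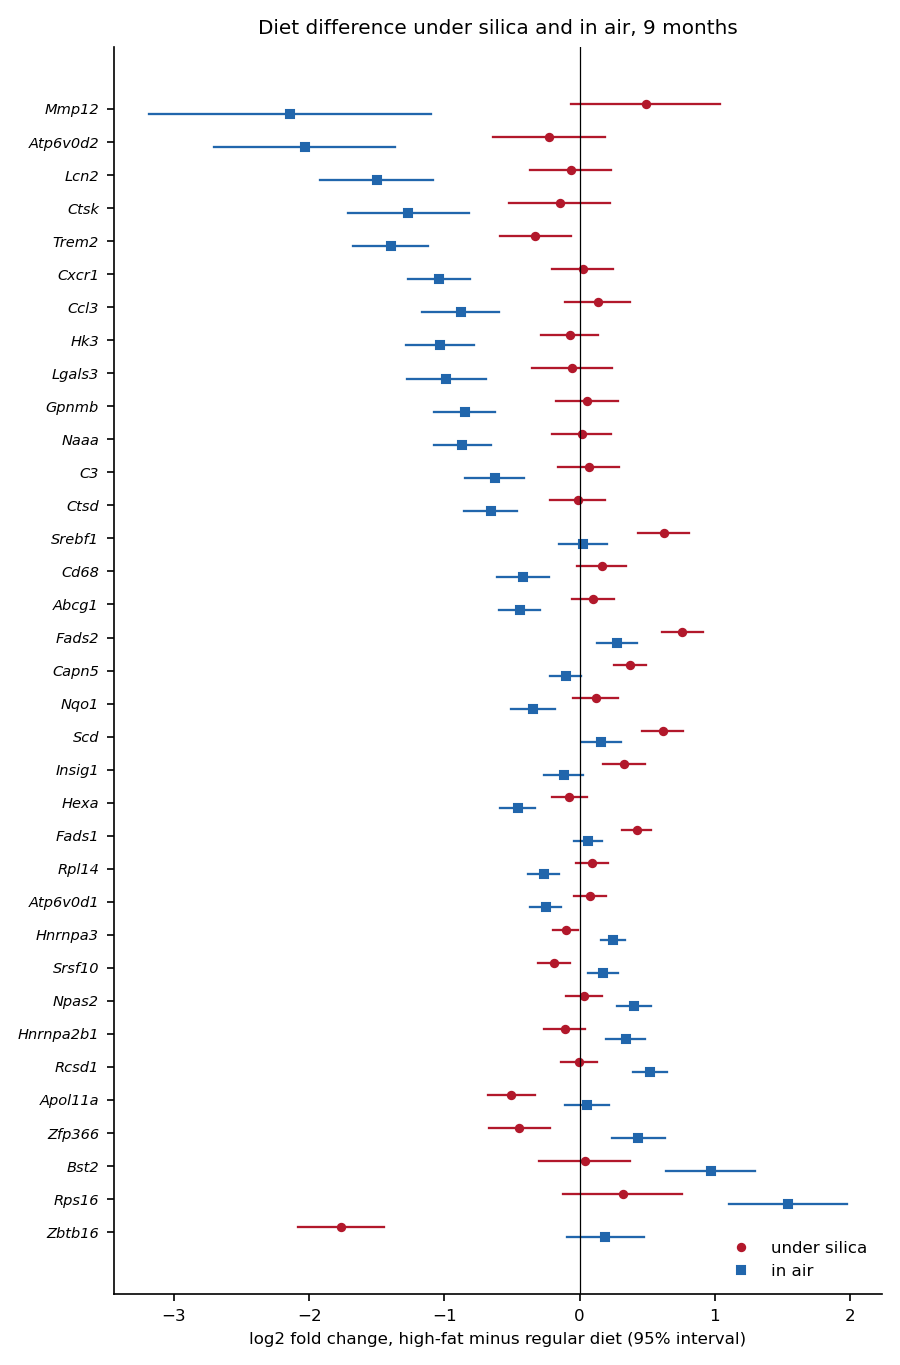
Log2 fold change, high-fat minus regular diet, under silica (circles) and in air (squares) at 9 months, for the 35 named genes whose interaction had an adjusted p below 0.05. Lines are 95% intervals, and Zbtb16 stands at -1.76 under silica and 0.19 in air while Gpnmb stands at 0.06 under silica and -0.85 in air.

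Silica rats sampled at 3 months, none of them among the 9-month animals, had a Rnr share that overlapped between the diets. It ran from 0.776% to 1.45% in high-fat silica lungs and from 0.635% to 1.43% in regular silica lungs. At this time 107 of 15234 genes passed (0.702%), 45 higher (0.295%) and 62 lower (0.407%). Of these 31 also passed at 9 months, 29.0% of the 3-month list and 5.87% of the 528 genes of the 9-month list that were tested at both times, and all 31 moved the same way. They included Cyp1a1, the clock genes Nr1d1, Nr1d2, Per3, Dbp and Tef, the lipid genes Fads2, Srebf1, Sqle, Fdft1, Scd1, Acot1 and Cpt1a, and Mrc1. Nr1d1 had a log2 fold change of 1.85 at 9 months and 1.92 at 3 months, Per3 0.77 and 1.47, Dbp 0.80 and 2.38, Srebf1 0.62 and 0.60, and Sqle 0.52 and 0.47. Zbtb16 had -1.76 at 9 months and -0.83 at 3 months, where its adjusted p was 0.582. At 3 months it ran from 26.1 to 107 CPM in high-fat silica lungs and from 43.7 to 216 CPM in regular silica lungs, so the groups overlapped. No gene of 15759 (0.0%) passed the test of the difference between the times in edgeR, while 1131 (7.18%) had an unadjusted p below 0.05. DESeq2 called 5 genes, Col3a1, Cx3cl1, Esrp1, Kif3c and Npas2, and limma voom called Col3a1 and Cxcl6.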

How the data were processed

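Gene counts of rat lung were deposited by the authors as 1 table per time, in whole reads per gene, not normalized. The submitters' processing notes list HTSeq 0.6.1, TopHat2 2.0.9 and the build Rnor_6.0. They also list Bowtie2 2.2.9 and Trimmomatic 0.35, beside SAMtools 0.1.19 and bcl2fastq 2.19. The strand setting and the annotation are not given in the sources used here. Each table lists 30045 symbols. Groups came from the labels. The labels do not say whether rats of a group shared a cage. The tests took each rat as independent, so p-values may be too small if rats of a cage resembled each other.

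Each table was fitted with edgeR 4.0.16 (R 4.3.3): filterByExpr with a minimum count of 10, TMM scaling, 1 coefficient per group over all groups of the table, the quasi-likelihood test and Benjamini-Hochberg adjustment over all tested genes at 0.05. CPM were computed here from the counts and TMM-scaled library sizes, and standard errors as the log2 fold change over the square root of F. The time difference was fitted over both tables, each time with groups of its own. The Rnr share was tested by exact permutation (scipy 1.17.1). Alternatives were DESeq2 1.42.0, limma 3.58.1 voom with sample weights, RLE size factors, no filter, legacy=TRUE, the log2 Rnr share as a covariate, Rnr1 and Rnr2 left out, only the groups compared, and each rat left out. The fitting steps were tested on simulated data.

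Genes are named by a rule: the 10 largest rises and falls and the 6 smallest p in each direction with a mean log2 CPM of at least 1, a fixed panel, for each described list its 4 members of smallest p, and the 4 smallest p in each direction of the interaction. List members called under silica or in the interaction, Scd1 and the genes said to be so in the text were added after their values were seen. Fasn, Ahrr, Cyp1b1, Sgk1, Dusp1 and Krt19 were named outside the rule, as list members that did not pass. The members and lists were chosen with earlier results of these data known. Promoters are RefSeq entries of build GRCr8, matched by symbol. Some genes are not reported here by name or in figures, though counts and medians of lists include them.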

Additional observations from a re-analysis of the deposited data

Results flagged for a closer look

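Among 230 pairs of a named gene and a silica group at 9 months, 13 held 1 rat that stood apart from the rest of its group by Dixon's test at the 95% level, and chance gives about 1 in 20 groups. Rnr2 had 53830 CPM in high-fat silica rat 3, with 55647 to 56731 CPM in the others of that group. Pdk4 had 15.4 CPM in high-fat silica rat 1, with 8.77 to 10.9 CPM in the others of that group. Mmp12 had 106 CPM in high-fat silica rat 1, with 136.7 to 145 CPM in the others of that group. Cxcl9 had 41.3 CPM in high-fat silica rat 2, with 15.2 to 22.1 CPM in the others of that group. Nqo1 had 51.3 CPM in high-fat silica rat 5, with 37.9 to 41.2 CPM in the others of that group. Trem2 had 64.6 CPM in high-fat silica rat 4, with 53.6 to 56.9 CPM in the others of that group. Fads2 had 51.1 CPM in regular silica rat 1, with 45.4 to 47.0 CPM in the others of that group. Dbp had 8.83 CPM in regular silica rat 1, with 5.60 to 6.37 CPM in the others of that group. Per3 had 31.9 CPM in regular silica rat 1, with 22.0 to 24.1 CPM in the others of that group. Cyp51 had 90.6 CPM in regular silica rat 3, with 76.4 to 78.4 CPM in the others of that group. Foxo1 had 29.3 CPM in regular silica rat 1, with 36.1 to 37.9 CPM in the others of that group. Lbp had 69.5 CPM in regular silica rat 3, with 56.6 to 60.0 CPM in the others of that group. Rpl14 had 159 CPM in regular silica rat 1, with 140.8 to 145 CPM in the others of that group.

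The diet difference under silica minus that in air had an adjusted p below 0.05 (edgeR quasi-likelihood test of the interaction) for 35 named genes. On the log2 scale the difference was above 0 for Mmp12 by 2.63, Atp6v0d2 by 1.81, Lcn2 by 1.43, Ctsk by 1.12, Trem2 by 1.07, Cxcr1 by 1.06, Ccl3 by 1.01, Hk3 by 0.96 and Lgals3 by 0.93. It was also above 0 for Gpnmb by 0.90, Naaa by 0.88, C3 by 0.69, Ctsd by 0.64, Srebf1 by 0.60, Cd68 by 0.58, Abcg1 by 0.54, Fads2 by 0.48 and Capn5 by 0.48. Smaller differences above 0 were those of Nqo1 by 0.46, Scd by 0.45, Insig1 by 0.44, Hexa by 0.38, Fads1 by 0.36, Rpl14 by 0.36 and Atp6v0d1 by 0.33. It was below 0 for Zbtb16 at -1.95, Rps16 at -1.22, Bst2 at -0.93, Zfp366 at -0.88, Apol11a at -0.56, Rcsd1 at -0.52, Hnrnpa2b1 at -0.45, Npas2 at -0.37, Srsf10 at -0.36 and Hnrnpa3 at -0.35. With the Rnr share as a covariate 5 of the 35 kept their calls, Zbtb16, Cxcr1, Capn5, Zfp366 and Trem2, and the differences of Bst2 and Rps16 were -0.44 and -0.78. Of the 23 fits that each left out 1 rat, the call was lost in 17 for Nqo1, in 16 for Ctsk, Bst2 and Rps16, in 15 for Atp6v0d1, in 13 for Npas2, in 11 for Hexa and in 9 for Rpl14, and for each of these 8 genes the fit without regular silica rat 5 was among them. Cd68 and Lgals3 did not pass without regular silica rat 5, and Srsf10 and Hnrnpa2b1 without high-fat silica rat 5 or regular silica rat 5.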

How the results depend on the processing

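Without single rats, the count of genes that passed ran from 260 to 724 under silica at 9 months, from 1626 to 2746 in air, from 72 to 273 for the interaction, from 55 to 209 under silica at 3 months and from 0 to 4 for the time difference, and the difference in Rnr share from 3.72 to 4.41 percentage points. With the Rnr share as a covariate, 27 genes passed under silica at 9 months, 1 in air (Cyp1a1), 23 for the interaction and 169 at 3 months. Of the 27 genes 19 were higher, 70.4% against 51.8% without the covariate. DESeq2 called 348 interaction genes, 227 genes at 3 months and 5 for the time difference, and limma voom called 273 interaction genes and 2 for the time difference. With only the groups compared, 59 genes passed at 3 months. The cause of these shifts was not tested. The other alternatives left the 9-month silica count between 382 and 717.

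Of 68 called named genes under silica, 16 kept direction and call under every alternative run, 32 lost the call without at least 1 rat, and none reversed. With the Rnr share as a covariate only 17 of the 68 were still called, and all 68 kept their sign. Genes that had not passed changed sign as follows. With the covariate, Spp1 was -0.27, Bst2 -0.34 and Rps16 -0.0145. Without single rats, Lcn2 ran from -0.186 to 0.0637 (regular rat 3), C3 from -0.0127 (regular rat 5) to 0.176, Col1a1 from -0.0449 (regular rat 3) to 0.0946 and Bst2 from -0.052 (regular rat 1) to 0.146. Cxcr1 ran from -0.0214 (regular rat 1) to 0.0852, Naaa from -0.0198 (high-fat rat 4) to 0.0775, Rcsd1 from -0.0392 to 0.0231 (regular rat 5), Npas2 from -0.0116 (high-fat rat 6) to 0.0546 and Ctsd from -0.0806 to 0.0300 (regular rat 3), where the rat in brackets gave the largest value of the other sign.

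No paired analysis was possible because the rats of different groups carry no shared number in the labels. With 3078216 counts or more per library, genes with a few counts, such as Cyp1a1 on the regular diet, were measured with wide counting error.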
